A study of Capra hircus with 90 samples.

Results

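VEGFA, VEGFB and VEGFC, the genes of the vascular endothelial growth factor ligands, were followed across 3 brainstem sites and 5 exposures of goats to inspired CO2. They are 3 of the 238 genes whose symbol could be tied to a row of the 25144-gene count table, and their goat Ensembl identifiers are ENSCHIG00000009242, ENSCHIG00000024766 and ENSCHIG00000024070. Symbols stood only in the authors' deposited tables of genes called between CO2 and room air, and each was tied to its row by an equal mean abundance. The ligands were thus selected on measured values, the study's own fold changes and p-values at 3 h and 24 h, and these are given below as a description, with no test. The authors' deposited tables list VEGFA as lower after both 3 h and 24 h of CO2 at 2 sites, VEGFB as lower at those times at 1 site, and VEGFC as higher after 3 h at 1 site.

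The tissue came from adult female goats of outbred stock, at least 2 years old, with 6 goats per exposure and 30 in all. The exposures were 3 h of 6% CO2 and 24 h of 6% CO2, set against 24 h of room air, and 7 d of 6% CO2, set against 7 d of room air. The first 3 groups were extracted and sequenced as 1 batch and both 7 d groups as a second, and no room-air group was kept for 3 h. Each goat gave punches of frozen tissue at 3 distances in front of the obex. Those at 0 to 2 mm were aimed at the nucleus of the solitary tract (NTS), those at 2 to 4 mm at the ventral respiratory column (VRC), and those at 8 to 10 mm at the retrotrapezoid nucleus (RTN). A punch holds every cell type of its place, vessels and glia included, so fewer cells of a type and less RNA per cell cannot be told apart in these values. No site-defining marker was among the linked symbols, so the site labels were not checked against the data.

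Vascular endothelial growth factors are secreted proteins that act on receptor tyrosine kinases of endothelial cells. In human and mouse tissue VEGFA binds KDR and FLT1, drives vessel growth and permeability, and is a target of the hypoxia-inducible factors. VEGFB binds FLT1 and is known more for the survival and lipid handling of vessels than for their growth, whereas VEGFC binds FLT4 and KDR and is the main growth factor of lymphatic vessels. In the brain VEGFA is made by astrocytes, neurons and the choroid plexus, among other cells, and capillaries carry the receptors.

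Levels are CPM, counts of the gene scaled to a common library size with TMM factors over all 90 libraries, given as lowest, median and highest of 6 libraries or as mean ± SD. They are comparable between libraries but not between genes, since gene lengths were not used. Differences are log2 fold changes from edgeR's quasi-likelihood fit, with the standard error (SE), and adjusted p-values are those of Benjamini and Hochberg over all genes of the fit, with 0.05 as the threshold. A p-value is given only where no library of the comparison took part in a deposited contrast that lists the gene. The share of all genes whose groups do not overlap was not counted, so such statements on the ligands are a description. Libraries held 5.46 to 36.8 M counts, with a mean of 23.4 M. All 3 ligands had counts in 90 of 90 libraries, with medians of 883 for VEGFA, 474.5 for VEGFB and 134.5 for VEGFC, and a lowest value of 16 counts for VEGFC. In the NTS of the first batch the first principal component, with 26% of the variance, set apart 5 libraries: numbers 5 and 6 after 3 h of CO2, number 5 after 24 h of CO2, and numbers 5 and 6 in room air. Differences of the ligands from room air in the NTS of that batch are given with and without them. Most other NTS values are given only with them.

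Of 60 combinations of a ligand and a comparison, 41 could be tested, and 0 of these 41 passed 0.05 by edgeR. The lowest adjusted p of the 41 was 0.0993, and 12 had an unadjusted p under 0.05. The other 19 combinations used libraries that had served to list the gene. By the same test 0%, 0.013% and 0.0129% of all genes passed in the NTS, VRC and RTN after 3 h, and 0%, 0.817% and 0% after 24 h. At 7 d the shares were 0.00653%, 0% and 0%. The 41 include 11 site differences in room air, in comparisons where 3.31% to 8.72% of all genes passed.

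**Figure D1:**
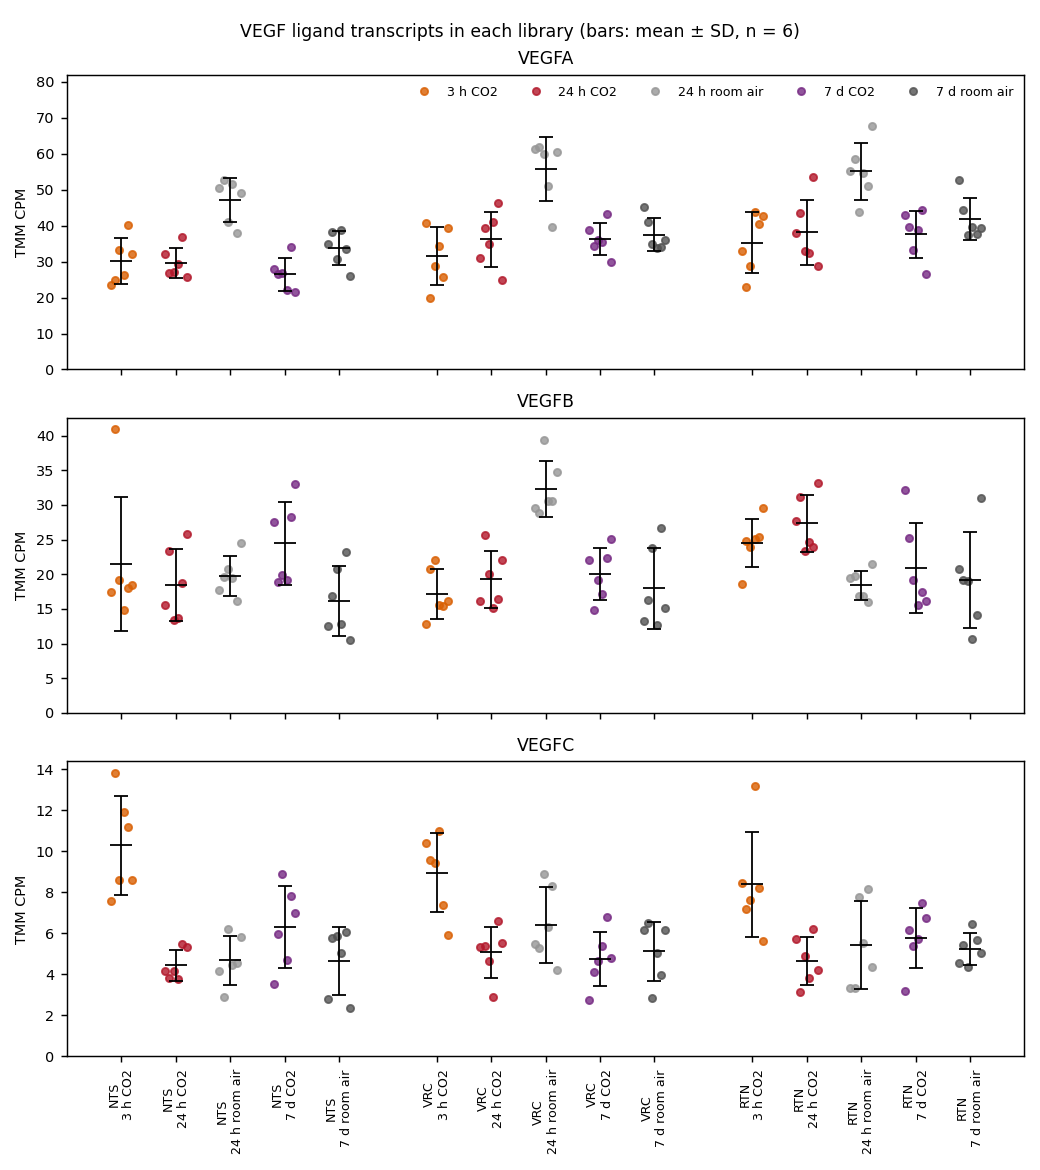
Each point is the CPM of 1 library for VEGFA (top), VEGFB (middle) and VEGFC (bottom), with the site and exposure on the horizontal axis and bars for the mean ± SD of 6 libraries. VEGFA was highest in the 24 h room-air groups of all 3 sites (means 47.1, 55.7 and 55.1 CPM), VEGFB stood highest in the VRC in 24 h room air, and VEGFC in the 3 groups with 3 h of CO2.

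VEGFA, the main growth factor of blood vessels, was lower in CO2 than in room air in all 9 comparisons within a site and batch, with log2 differences between -0.05 and -0.83. The estimates at 3 h and 24 h were farther from 0 than those at 7 d. Over all genes the median difference was close to 0 in each of these comparisons, for example 0.02 in the NTS at 3 h. Comparisons at 3 h and 24 h of a site share their room-air libraries, and the 3 sites share their goats, so the 9 directions are not independent. At 3 h and 24 h in the NTS and VRC, the direction is the one that listed VEGFA. Only 5 of the 9 could be tested.

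In the NTS VEGFA ranged over 23.6, 29.3 and 40.3 CPM (lowest, median, highest) after 3 h of CO2, and over 25.6, 28.2 and 36.9 CPM after 24 h of CO2, against 37.9, 49.7 and 52.6 CPM in room air. All 6 libraries after 24 h and 5 of 6 after 3 h lay below the lowest room-air library. The log2 differences from room air were -0.64 (SE 0.13) at 3 h and -0.66 (SE 0.13) at 24 h. These are among the values that listed VEGFA; the authors' deposited table gives -0.65 at 3 h (FDR 0.0385) and -0.67 at 24 h (FDR 0.00974). Without the 5 libraries that stood apart the differences were -0.87 at 3 h and -0.79 at 24 h.

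VEGFA in the VRC stood at 20.0, 31.5 and 40.7 CPM after 3 h of CO2 and at 24.8, 37.0 and 46.4 CPM after 24 h, against 39.6, 60.2 and 61.9 CPM in room air. Here 5 of 6 libraries after 3 h and 4 of 6 after 24 h were under the lowest room-air library, which itself lay well below the other 5. The log2 differences were -0.83 (SE 0.16) at 3 h and -0.63 (SE 0.16) at 24 h, and the authors' deposited table gives -0.82 (FDR 0.000405) and -0.62 (FDR 0.0156) for the same contrasts. The 2 times were close to each other: the log2 difference of 24 h minus 3 h was -0.02 (SE 0.13) in the NTS and 0.20 (SE 0.17) in the VRC.

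The RTN libraries did not serve to list VEGFA, and there the gene was tested, in punches of the same goats as those of the NTS and VRC. Its levels were 22.9, 36.8 and 43.79 CPM after 3 h in CO2 and 28.8, 35.4 and 53.4 CPM after 24 h, against 43.82, 54.85 and 67.6 CPM in room air. At 3 h the groups did not overlap, although the highest CO2 library and the lowest room-air library nearly touched, and at 24 h 5 of 6 CO2 libraries were below every room-air library. The log2 difference was -0.65 at 3 h (SE 0.16, 95% interval -0.97 to -0.32), with an unadjusted edgeR p of 0.00053 and an adjusted p of 0.321. At 24 h the difference was -0.52 (SE 0.16, interval -0.85 to -0.19, edgeR adjusted p = 0.533). Neither value passed the threshold over all genes, and the direction matched that of the NTS and VRC in the same goats. The difference of 24 h minus 3 h was 0.12 (interval -0.21 to 0.45, edgeR adjusted p = 0.842).

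After 7 d of CO2 the estimates for VEGFA were nearer to 0. In the NTS it ranged over 21.5, 26.7 and 34.0 CPM in CO2, against 26.1, 34.1 and 38.9 CPM in room air, and 5 of 6 CO2 libraries lay below the room-air mean. The log2 difference there was -0.35 (SE 0.13, interval -0.62 to -0.08, edgeR adjusted p = 0.565). In the VRC the difference was -0.05 (SE 0.10, interval -0.27 to 0.17) and in the RTN -0.16 (SE 0.13, interval -0.43 to 0.11), with edgeR adjusted p-values of 0.924 and 0.999. The intervals in the VRC and RTN leave out a fall of the size seen there at 3 h, but the batches differ and this contrast between times was not tested. Whether the 7 d effect differed between the 3 sites was tested over 36 libraries, with the punches of a goat treated as separate. The edgeR adjusted p was 0.929 for each of VEGFA, VEGFB and VEGFC, where 0% of all genes passed.

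The 7 d room-air libraries were themselves lower in VEGFA than the 24 h room-air libraries. The log2 difference of 7 d room air minus 24 h room air was -0.48 in the NTS, -0.56 in the VRC and -0.39 in the RTN. Room air at 7 d averaged 33.7 ± 4.79, 37.5 ± 4.66 and 41.8 ± 5.91 CPM in the NTS, VRC and RTN (SD, n = 6), close to the first-batch CO2 groups of 24 h, which averaged 29.6 ± 4.25, 36.2 ± 7.68 and 38.2 ± 9.07 CPM. Batch and time in the study cannot be told apart here, so no level is compared across the 2 batches by a test. In the order of the 15 group means VEGFA was highest in the VRC in 24 h room air, at 55.7 CPM, and lowest in the NTS after 7 d of CO2, at 26.4 CPM, a ratio of 2.11. Only 1 of the 14 steps between neighbours in that order exceeded the larger SD of the pair, the one between room air of the RTN and of the NTS at 24 h.

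Seen goat by goat, as the geometric mean of the 3 sites, VEGFA was 22.5, 32.9 and 37.7 CPM (lowest, median, highest of 6 goats) after 3 h of CO2 and 26.4, 33.7 and 45.1 CPM after 24 h, against 42.4, 53.9 and 58.5 CPM in room air. All 6 goats with 3 h of CO2 were below all 6 in room air, and at 24 h the groups overlapped. These goat values include the NTS and VRC libraries that served to list VEGFA as lower, so they are a description. At 7 d the goats with CO2 had 25.8, 32.4 and 40.2 CPM, against 33.3, 36.2 and 43.7 CPM in room air, and these groups overlapped as well. With counts of the 3 sites summed per goat, the log2 difference at 7 d was -0.16 (SE 0.10, interval -0.37 to 0.06, edgeR adjusted p = 1), and an exact permutation test over the 12 goats gave a two-sided p of 0.167. Deviations of VEGFA from the group mean went together between sites of the same goat, with correlations over 30 goats of 0.30 between NTS and VRC, 0.54 between NTS and RTN, and 0.65 between VRC and RTN.

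Transthyretin (TTR), the only marker of choroid plexus and ependyma with a linked symbol, had higher medians in CO2 than in room air of the first batch where VEGFA was lower, except in the NTS at 24 h. In the VRC it ranged over 1.56, 9.52 and 34.2 CPM after 3 h in CO2 and 1.39, 11.8 and 162.8 CPM after 24 h, against 0.485, 1.99 and 2.59 CPM in room air. Its medians in the NTS were 6.04 CPM after 3 h and 1.80 CPM after 24 h, against 1.82 CPM in room air, and in the RTN 2.56 and 7.16 CPM, against 1.76 CPM. Single libraries after 3 h reached 156.4 CPM in the NTS and 1905 CPM in the RTN. Blood markers also differed in the NTS: the summed level of HBQ1 and HEMGN, 2 of 5 markers, was 9.72, 13.0 and 16.8 CPM (lowest, median, highest) after 3 h and 8.14, 9.92 and 19.2 CPM after 24 h, against 11.9, 16.4 and 25.2 CPM in room air. That of the microglial genes AIF1 and CD14, 2 of 7 markers, was 49.0, 61.5 and 85.1 CPM after 3 h and 35.8, 56.9 and 86.6 CPM after 24 h, against 62.2, 68.3 and 116.5 CPM in room air. PRPH, a neurofilament-like protein of peripheral neurons and 1 of 5 neuron markers, had medians of 4.00 and 3.03 CPM, against 5.05 CPM, with single libraries up to 1099 CPM. In the NTS the medians of the blood and microglial sums and of PRPH were thus below room air at both times, as was VEGFA. The single markers there went both ways, as given below. The VRC, where VEGFA was lower too, differed from this. Blood medians there were 12.03 CPM after 3 h and 12.19 CPM after 24 h, against 10.75 CPM in room air. In the same order PRPH had 8.01 and 15.55 CPM, against 6.028 CPM, and the microglial sum 55.05 and 70.08 CPM, against 59.11 CPM. In the RTN the blood and microglial medians were below room air, and PRPH was at 642.8 and 129.8 CPM, against 251.9 CPM. Single markers differed in sign in the NTS at both times. At 3 h the log2 differences were -0.39 for HBQ1 (SE 0.21) and 0.52 for HEMGN (SE 0.67). AIF1 and CD14 then had -0.39 (SE 0.21) and 0.35 (SE 0.24), and PRPH had 1.20 (SE 1.59) despite its lower median. At 24 h the log2 differences were -0.82 for HBQ1 (SE 0.22) and 1.88 for HEMGN (SE 0.55). Those of AIF1 and CD14 were -0.64 (SE 0.21) and 0.84 (SE 0.24). All of these markers have a symbol only because the study listed them between CO2 and room air, so their directions are not independent evidence. The part of these tissues and cells in the VEGFA values was not tested.

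**Figure D2:**
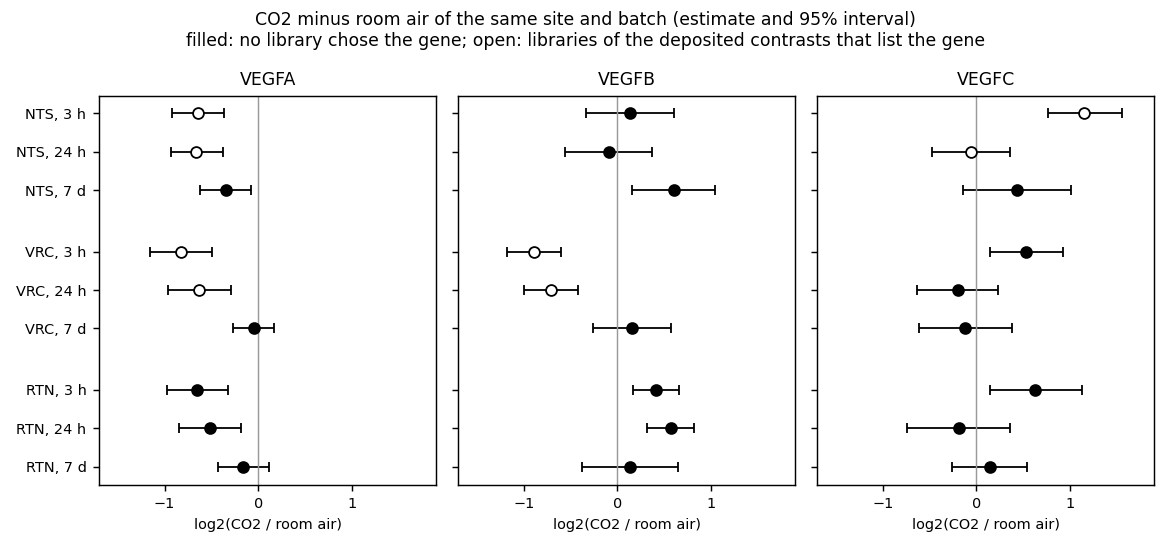
Each point is the log2 difference of CO2 minus room air within a site and batch, with its 95% interval, for VEGFA, VEGFB and VEGFC. Filled points use libraries that did not serve to list the gene and open points use libraries that did; VEGFA lies below 0 in all 9 rows, VEGFB lies below 0 in the VRC and above it in the RTN at 3 h and 24 h, and VEGFC is highest in the 3 h row of each site.

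VEGFB, a ligand of FLT1, took opposite directions in the VRC and the RTN within the first batch. It was lower in CO2 in the VRC, where it was listed, and higher in CO2 in the RTN, where it was not. At 24 h the CO2 and room-air libraries did not overlap at either site, a description given without the share over all genes. In the NTS of that batch the groups overlapped.

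In the VRC VEGFB stood at 12.8, 15.9 and 22.1 CPM after 3 h of CO2 and at 15.15, 18.25 and 25.6 CPM after 24 h, against 28.8, 30.5 and 39.4 CPM in room air. Every CO2 library lay below every room-air library at both times. The log2 differences were -0.89 (SE 0.14) at 3 h and -0.71 (SE 0.14) at 24 h, and 24 h minus 3 h was 0.18 (SE 0.15). The authors' deposited table gives -0.90 (FDR 0.0304) at 3 h and -0.73 (FDR 0.0487) at 24 h, the second being the listed value of these ligands nearest to the threshold.

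In the RTN VEGFB had 18.65, 24.9 and 29.5 CPM after 3 h in CO2 and 23.3, 26.2 and 33.1 CPM after 24 h, against 16.0, 18.2 and 21.5 CPM in room air. The 6 libraries after 24 h and 5 of 6 after 3 h were above the highest room-air library. The log2 difference was 0.41 at 3 h (SE 0.12, interval 0.17 to 0.66, edgeR adjusted p = 0.373). At 24 h it was 0.57 (SE 0.12, interval 0.32 to 0.82), with an unadjusted edgeR p of 9.71e-05, which ranked 2 among 15479 genes, and an adjusted p of 0.411. DESeq2 gave the same difference an adjusted p of 0.0274, so the call at 24 h depends on the tool. Values at 24 h and 3 h differed by 0.16 (interval -0.08 to 0.40, edgeR adjusted p = 0.682).

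The NTS of the first batch gave VEGFB 14.9, 18.2 and 41.0 CPM after 3 h in CO2 and 13.4, 17.1 and 25.8 CPM after 24 h, against 16.2, 19.5 and 24.5 CPM in room air. These groups overlapped, and 1 library after 3 h, number 2, stood far above the rest. The log2 differences were 0.14 at 3 h (interval -0.33 to 0.60, edgeR adjusted p = 0.946) and -0.09 at 24 h (interval -0.56 to 0.37, edgeR adjusted p = 0.902). Without number 2 the value at 3 h was -0.16, and without the 5 libraries that stood apart the values were 0.27 at 3 h and -0.09 at 24 h.

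At 7 d the largest of the 3 site differences of VEGFB was that of the NTS. There it ranged over 18.9, 23.8 and 33.0 CPM in CO2, against 10.5, 14.8 and 23.2 CPM in room air, with all 6 CO2 libraries above the room-air mean and 3 of 6 above its highest library. The log2 difference was 0.60 (SE 0.21, interval 0.16 to 1.04, edgeR adjusted p = 0.527). The VRC had 14.8, 20.6 and 25.1 CPM in CO2, against 12.7, 15.75 and 26.7 CPM in room air, a log2 difference of 0.16 (interval -0.26 to 0.57, edgeR adjusted p = 0.884). In the RTN the difference was 0.13 (interval -0.38 to 0.65, edgeR adjusted p = 0.999). Summed over sites per goat, VEGFB differed by 0.32 at 7 d (SE 0.14, interval 0.02 to 0.63, unadjusted edgeR p = 0.0399, adjusted p = 1), and the exact permutation test over 12 goats gave a two-sided p of 0.0649.

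The level of VEGFB in the VRC in 24 h room air was the highest of its 15 group means, at 32.3 ± 4.07 CPM, and the step to the next group, the RTN after 24 h of CO2 at 27.3 ± 4.08 CPM, was the only one of 14 larger than the SD. The lowest mean was that of the NTS in 7 d room air, at 16.1 ± 5.07 CPM, which makes a ratio of 2.01. In 24 h room air VRC minus RTN was 0.80 on the log2 scale (SE 0.12), and NTS minus VRC was -0.71 (SE 0.12). Both rest on VRC libraries that served to list the gene, and in these comparisons 5.43% and 11.3% of all genes passed. At 7 d room air the same differences were -0.08 (SE 0.25) for VRC minus RTN and -0.17 (SE 0.25) for NTS minus VRC, with edgeR adjusted p-values of 0.903 and 0.748. The 7 d room-air libraries of the VRC were lower in VEGFB than those of 24 h, with a log2 difference of -0.89, against -0.33 in the NTS and -0.01 in the RTN.

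OLIG1 and OLIG2, transcription factors of the oligodendrocyte lineage and 2 of the 6 oligodendrocyte markers, moved beside VEGFB at the VRC and the RTN. Their summed level in the VRC was 17.2, 39.0 and 135.5 CPM (lowest, median, highest) after 3 h of CO2 and 21.45, 37.4 and 45.4 CPM after 24 h, against 96.5, 122.7 and 147.4 CPM in room air. In the RTN it was 33.05, 82.4 and 123.9 CPM after 3 h and 60.85, 67.6 and 100.2 CPM after 24 h, against 26.2, 36.3 and 69.4 CPM in room air. The sum was thus lower with CO2 in the VRC and higher with CO2 in the RTN by its median, as VEGFB was. Its medians in the NTS at 7 d were 62.9 CPM in CO2 and 42.7 CPM in room air. OLIG1 and OLIG2 have a symbol only because the study listed them between CO2 and room air, so their directions are not independent evidence. The part of oligodendrocyte RNA in the VEGFB values was not tested, and the other 4 markers of the list carry no linked symbol.

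The genes most like VEGFB over the 15 group means were NRG2, a neuregulin ligand of ErbB receptors (Pearson r = 0.95), GNA12, the alpha subunit of a heterotrimeric G protein (0.93), OLIG1 (0.91), DACT3, an antagonist of Wnt signalling (0.90), and LEMD2, a protein of the inner nuclear membrane (0.90). NRG2 and GNA12 ranked 1 and 2 among all 16629 genes compared, and the other 3 ranked 6, 8 and 9. The likeness was also present among libraries of the same group, with r of 0.75, 0.75, 0.68, 0.67 and 0.77 over 90 libraries for NRG2, GNA12, OLIG1, DACT3 and LEMD2. All 5 had their highest group mean in the VRC in 24 h room air, where NRG2 averaged 18.5 CPM and GNA12 45.8 CPM. Without the 3 VRC groups that listed VEGFB, r over 12 groups was 0.91, 0.93, 0.88, 0.92 and 0.86. Symbols exist only for genes that the study listed, so better matches without a symbol are not named, and the points share libraries and depth. No group was removed for listing one of the 5 partners.

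**Figure D3:**
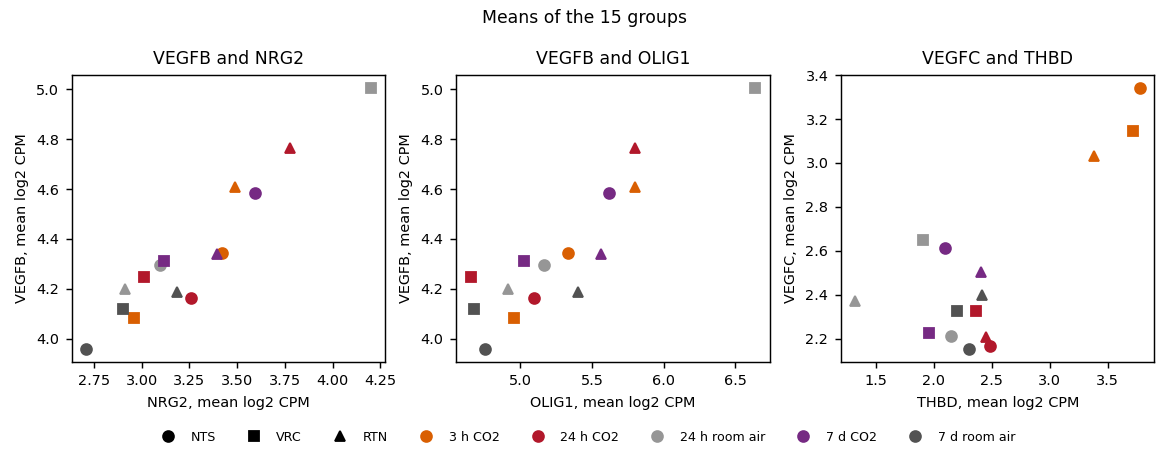
Each point is 1 of the 15 groups, with the mean log2 CPM of VEGFB against that of NRG2 (left) and OLIG1 (middle), and of VEGFC against that of THBD (right); shapes mark the site and colours the exposure. The VRC in 24 h room air stands at the top right of the first 2 panels, and the 3 groups with 3 h of CO2 stand together at the top right of the other panel.

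VEGFC, the lymphatic growth factor and the least abundant of the 3 by counts, was higher after 3 h of CO2 at all 3 sites and close to room air after 24 h. It was listed only for the NTS at 3 h, so its values in the VRC and RTN come from libraries that did not list it, though from the same goats. In those the estimate was smaller than in the NTS, and none passed the threshold over all genes.

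In the NTS VEGFC had 7.57, 9.92 and 13.8 CPM after 3 h in CO2 and 3.76, 4.18 and 5.47 CPM after 24 h, against 2.91, 4.50 and 6.19 CPM in room air. All 6 libraries after 3 h were above every library after 24 h and every library in room air. The log2 difference from room air was 1.15 at 3 h (SE 0.19), which is 2.22-fold, and -0.06 at 24 h (SE 0.20), so that 24 h minus 3 h was -1.21 (SE 0.19). The authors' deposited table gives 1.13 at 3 h (FDR 0.00691). Without the 5 libraries that stood apart the differences from room air were 1.26 at 3 h and -0.07 at 24 h.

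The VRC showed VEGFC at 5.90, 9.51 and 11.03 CPM after 3 h of CO2 and at 2.92, 5.35 and 6.605 CPM after 24 h, against 4.19, 5.88 and 8.905 CPM in room air. After 3 h 4 of 6 libraries exceeded the highest room-air library. The log2 difference from room air was 0.53 at 3 h (SE 0.19, interval 0.14 to 0.92, edgeR adjusted p = 0.246) and -0.20 at 24 h (interval -0.63 to 0.23, edgeR adjusted p = 0.73). After 24 h of CO2 VEGFC was lower than after 3 h, with a log2 difference of -0.73 (SE 0.20, interval -1.14 to -0.33), with an unadjusted edgeR p of 0.00117 that ranked 33 among 15424 genes and an adjusted p of 0.494.

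VEGFC in the RTN ranged over 5.62, 7.92 and 13.2 CPM after 3 h of CO2 and over 3.115, 4.54 and 6.225 CPM after 24 h, against 3.34, 4.94 and 8.17 CPM in room air. All 6 libraries after 3 h lay above the room-air mean and 3 of 6 above its highest library. The log2 difference from room air was 0.63 at 3 h (SE 0.24, interval 0.14 to 1.13, edgeR adjusted p = 0.606) and -0.19 at 24 h (interval -0.74 to 0.36, edgeR adjusted p = 0.943). For 24 h minus 3 h it was -0.82 (SE 0.24, interval -1.33 to -0.31, edgeR adjusted p = 0.449). In both sites the comparison of 24 h with 3 h called 0% of all genes.

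After 7 d VEGFC overlapped between CO2 and room air at every site. The NTS had 3.52, 6.46 and 8.90 CPM in CO2, against 2.36, 5.40 and 6.08 CPM in room air, a log2 difference of 0.43 (SE 0.27, interval -0.14 to 1.01, edgeR adjusted p = 0.687). The differences in the VRC and RTN were -0.12 (interval -0.61 to 0.38) and 0.14 (interval -0.26 to 0.54), with edgeR adjusted p-values of 0.924 and 0.999. The batches differ, and no contrast between 3 h and 7 d was tested. The 3 h estimates, 0.53 in the VRC and 0.63 in the RTN, lie above these 7 d intervals, that of the RTN narrowly. With the sites summed per goat the difference was 0.17 (SE 0.17, interval -0.20 to 0.54, edgeR adjusted p = 1; exact permutation test over 12 goats, two-sided p = 0.496).

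By group means VEGFC ran over a ratio of 2.31, highest in the NTS after 3 h of CO2, at 10.3 ± 2.40 CPM, and lowest in the NTS after 24 h of CO2, at 4.45 ± 0.753 CPM. The VRC and RTN after 3 h of CO2 came next, at 8.95 ± 1.93 and 8.38 ± 2.55 CPM. None of the 14 steps between neighbours in the order exceeded the larger SD. As geometric means of the 3 sites of a goat, VEGFC was 6.585, 8.76 and 12 CPM after 3 h in CO2 and 3.47, 4.77 and 6.08 CPM after 24 h, against 3.72, 5.055 and 7.54 CPM in room air. The goats after 3 h were all above those after 24 h and overlapped with those in room air. Their values include the NTS libraries that served to list VEGFC as higher after 3 h.

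The linked genes most like VEGFC over the 15 group means were THBD, the thrombin receptor thrombomodulin of endothelial cells (r = 0.78), HYAL2, a hyaluronidase (0.73), TUBB6, a beta tubulin (0.71), NOS3, the endothelial nitric oxide synthase (0.67), and MYCN, a transcription factor (0.62). Their ranks among 16629 genes were 12, 28, 37, 70 and 127. Within groups the correlations over 90 libraries were lower, at 0.28, 0.44, 0.31, 0.48 and 0.05. THBD averaged 14.98 ± 6.43 CPM in the NTS after 3 h of CO2 and 6.11 ± 2.83 CPM after 24 h, against 4.87 ± 2.16 CPM in room air (SD, n = 6), and NOS3 averaged 33.9 ± 9.36 and 24.7 ± 10.02 CPM, against 17.6 ± 2.38 CPM. Without the 3 NTS groups that listed VEGFC, r over 12 groups was 0.72 for THBD, 0.61 for HYAL2, 0.64 for TUBB6, 0.57 for NOS3 and 0.55 for MYCN. These partners are themselves genes that the study listed, and no group was removed for listing a partner, so r remains a description.

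OVN (r = 0.74, rank 12), EPYC, a small proteoglycan of cartilage (0.74, rank 13), WFDC2 (0.73, rank 18), MEOX2, a homeobox factor of mesoderm and vessels (0.61, rank 90), and SMIM29 (0.54, rank 235) were the linked genes most like VEGFA over the 15 group means. Their correlations with VEGFA within groups ran between -0.06 and 0.16 over 90 libraries. Without the 6 NTS and VRC groups that listed VEGFA, r over 9 groups was 0.84 for OVN, 0.81 for EPYC, 0.81 for WFDC2, 0.77 for MEOX2 and 0.41 for SMIM29. Here too the partners are genes that the study listed, and no group was removed for listing a partner. EPYC and OVN were near the lower limit of measurement, with median levels of 0.0976 and 0.562 CPM. The 3 ligands were little alike among themselves: over the 15 group means r was 0.25 for VEGFA with VEGFB, -0.29 for VEGFA with VEGFC and 0.19 for VEGFB with VEGFC, and within groups it lay between -0.03 and 0.

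The balance between ligands within a library does not depend on library size or scaling. The log2 ratio of VEGFA to VEGFC counts in the NTS averaged 1.56 ± 0.45 after 3 h of CO2 and 2.74 ± 0.25 after 24 h, against 3.36 ± 0.52 in room air (SD, n = 6). All 6 libraries after 3 h, at 0.85 to 1.95, were below all 6 in room air, at 2.72 to 4.18. The study listed VEGFA as lower and VEGFC as higher on these same libraries, so a lower ratio followed from that listing. The log2 ratio of VEGFA to VEGFB in the RTN averaged 0.50 ± 0.36 after 3 h and 0.46 ± 0.43 after 24 h, against 1.58 ± 0.12 in room air. There too the groups did not overlap, with at most 0.82 after 3 h and 1.16 after 24 h, against at least 1.37 in room air.

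At 7 d in the NTS, with libraries that played no part in the listing, the log2 ratio of VEGFA to VEGFB was 0.13 ± 0.41 in CO2 and 1.11 ± 0.46 in room air. The highest CO2 library, at 0.49, was just below the lowest room-air library, at 0.52. In the VRC and RTN at 7 d this ratio overlapped, with means of 0.87 ± 0.33 and 0.88 ± 0.37 in CO2, against 1.11 ± 0.55 and 1.20 ± 0.51 in room air. These ratios were chosen after the values of the ligands were seen and carry no test.

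**Figure D4:**
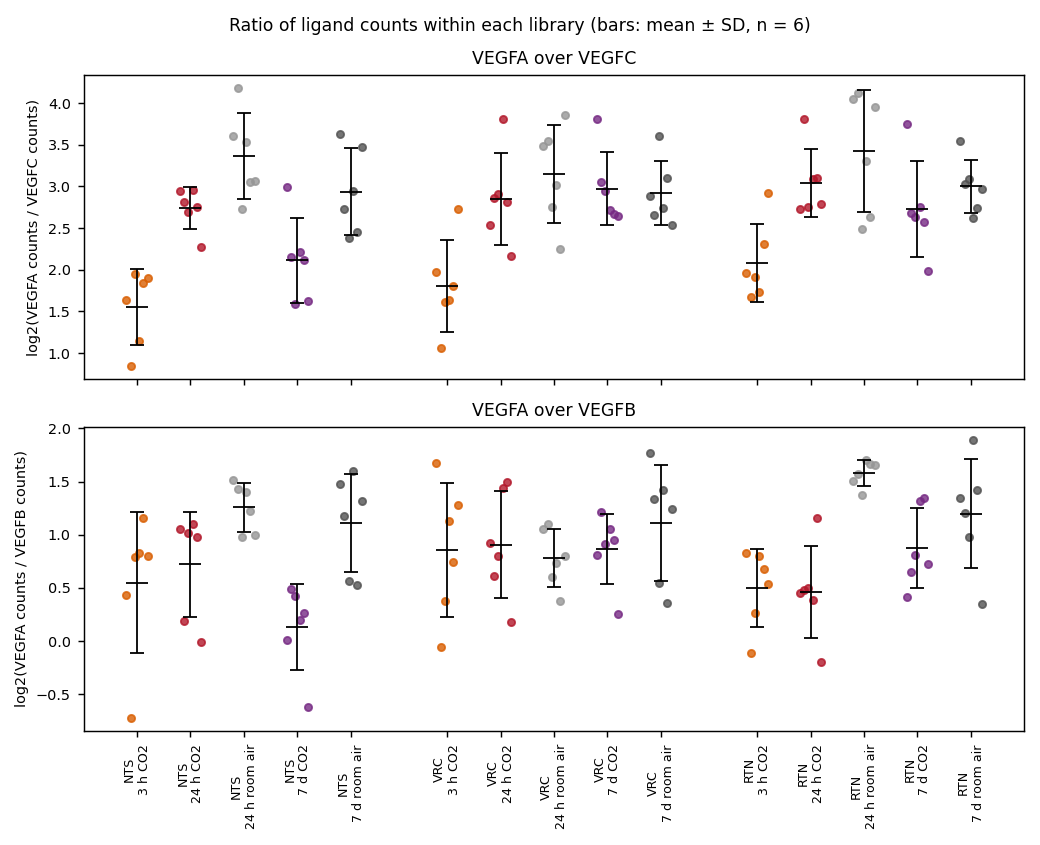
Each point is the log2 ratio of counts in 1 library, VEGFA over VEGFC (top) and VEGFA over VEGFB (bottom), by site and exposure, with bars for the mean ± SD of 6 libraries. The ratio to VEGFC is lowest in the 3 h CO2 groups, and the ratio to VEGFB in the RTN is 0.50 and 0.46 in the 3 h and 24 h CO2 groups, against 1.58 in room air.

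Between sites in room air 0 of the testable differences of the ligands passed 0.05 without a block. At 7 d VEGFA was lower in the NTS than in the RTN, with a difference of -0.32 (log2, SE 0.12, interval -0.56 to -0.07, edgeR adjusted p = 0.0993), where 8.27% of all genes passed. With the goat number as a block, since each goat gave all 3 sites, the same difference of -0.32 had an edgeR adjusted p of 0.0293. NTS minus VRC and VRC minus RTN were both -0.16 for VEGFA (edgeR adjusted p = 0.436 and 0.512), where 8.72% and 4.52% of all genes passed. VEGFC differed by -0.15, -0.18 and -0.03 for NTS minus VRC, NTS minus RTN and VRC minus RTN at 7 d, with edgeR adjusted p-values of 0.762, 0.715 and 0.963. In 24 h room air the testable differences were NTS minus RTN for VEGFB, at 0.10 (interval -0.15 to 0.34, edgeR adjusted p = 0.795), and VRC minus RTN for VEGFC, at 0.20 (interval -0.32 to 0.71, edgeR adjusted p = 0.702), where 3.31% and 5.43% of all genes passed.

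The goats of a group were also compared across their sites, as done for VEGFA above. For VEGFB the deviations from the group mean correlated at 0.74 between NTS and VRC over 30 goats, but at 0.01 between NTS and RTN and at 0.06 between VRC and RTN. For VEGFC the closest sites were VRC and RTN, at 0.65, with 0.47 for NTS and RTN and 0.12 for NTS and VRC. Punches of a goat share their animal and its batch.

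Other genes of VEGF signalling could be followed only where the study had listed them. Of 7 further ligands and receptors, among them FLT1, KDR and FLT4, 0 carry a linked symbol, and they are not analysed here. Of 20 hypoxia-inducible factors and their targets 1 does, EGLN1, an oxygen-dependent enzyme that targets those factors for degradation, and of 16 genes of VEGF signalling and vessel remodelling 3 do: NOS3, THBD and ACVRL1, an endothelial receptor of the TGF-beta family. The study listed all 4 on these libraries, so their values are given with no test and are not independent evidence of a direction.

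In the NTS ACVRL1 averaged 21.7 ± 2.69 CPM after 3 h in CO2 and 16.4 ± 3.46 CPM after 24 h, against 11.1 ± 2.81 CPM in room air, and 11.6 ± 2.57 CPM after 7 d of CO2, against 18.1 ± 2.48 CPM in 7 d room air. The log2 difference of ACVRL1 was thus 0.97 (SE 0.16) at 3 h and -0.64 (SE 0.16) at 7 d, and that of NOS3 0.95 (SE 0.22) at 3 h and -0.48 (SE 0.17) at 7 d. VEGFA at that site was lower with CO2 at both of these times, and VEGFC was 1.15 at 3 h and 0.43 at 7 d. EGLN1 in the VRC differed by -0.82 (SE 0.13) at 3 h and -0.89 (SE 0.13) at 24 h, and in the RTN by 0.44 (SE 0.13) and 0.47 (SE 0.13), the same signs as VEGFB at those sites and times.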

How the data were processed

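RNA of each punch was isolated with a lipid tissue kit and turned into libraries with SMART-Seq v4 reagents followed by Nextera XT, with 100-bp paired reads, per the labels' protocols. Per the submitters' processing notes the tools were featureCounts 2.0.6, STAR 2.7.10b, fastp 0.24.0 and edgeR 4.6. The build is not given in the sources used here, nor is the annotation. The authors deposited raw counts per Ensembl gene for 90 libraries. The log2 fold changes and log2 mean abundances of the deposited gene tables are the authors' edgeR values per the file headers. The likelihood ratio there is a score, and PValue and FDR are p-values, also deposited by the authors.

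Symbols were linked by refitting the likelihood ratio model over all 90 libraries and 15 groups (17730 genes at a minimum count of 5). Of 342 deposited entries, 341 had exactly 1 gene within 1e-06 of their log2 mean abundance, and the other was given by its own identifier. The largest difference from the deposited fold changes was 0.00151.

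Tests on the counts used edgeR 4.0.16 in R 4.3.3 (TMM, filterByExpr, glmQLFit with legacy=FALSE and robust=TRUE, quasi-likelihood F test), per site and batch, in 20 comparisons; 95% intervals use the t distribution of the fit. The script was tested on simulated counts. Log2 levels use a prior count of 2. Alternatives were RLE factors, no filter, 1 CPM in 6 libraries, DESeq2 1.42.0, limma 3.58.1 voom with quality weights, the replicate number as a block, the 2 compared groups alone, and each library left out. The fits without the 5 NTS libraries that stood apart and without the shallowest VRC library were added after seeing the data.

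The ligands, the gene lists and the tests were chosen with earlier results of these data known. The planned rule for giving a p was narrowed: none is given where any library of the comparison had served to list the gene. The named genes are the 3 ligands, the linked members of the fixed lists, and per ligand the 5 linked genes of highest Pearson r over the group means. Site numbers 1 to 6 were taken as goats, since 6 goats gave all 3 sites. In 13 of 15 pairs of sites every same-numbered pair of libraries had residuals correlated over 0.1, with a lowest value of 0.059. The same held in 1 of 12 pairs of groups from different goats. That pair was the NTS after 3 h of CO2 and in room air, with a lowest value of 0.104. Goats of different exposures are different animals. P-values between exposures within a site, and those with sites summed per goat, measure the spread between goats. In the site differences and the test over 36 libraries, punches of a goat were treated as separate unless a block is named. Set tests were not run, and no sequence is shown.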

Additional observations from a re-analysis of the deposited data

Results flagged for a closer look

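VEGFB in the NTS after 3 h of CO2 had 1 library far from its group: number 2 stood at 41.0 CPM, against a next value of 19.2 CPM and a group median of 18.2 CPM. It was the only 1 of 45 groups of 6 libraries past Dixon's 95% value, and chance gives about 1 in 20. Without it the log2 difference from room air was -0.16 in place of 0.14.

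The effect of CO2 on VEGFB differed in direction between the RTN and the VRC. At 24 h it was 0.57 in the RTN and -0.71 in the VRC (log2), and at 3 h it was 0.41 in the RTN and -0.89 in the VRC. Every CO2 library lay above the room-air mean in the RTN and below it in the VRC. The difference itself was not tested, because the VRC libraries had served to list VEGFB.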

How the results depend on the processing

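Of the tested values under other settings, 280 of 284 kept their direction and their side of 0.05, as did 555 of 564 with 1 library left out, of which the other 9 changed sign. Counting untested values, which have only a direction, 427 of 432 and 769 of 792 stayed the same. The call changed in 2 cases: VEGFB in the RTN at 24 h passed with DESeq2 (0.57, adjusted p = 0.0274), and VEGFA in NTS minus RTN at 7 d room air passed with the replicate block (-0.32, adjusted p = 0.0293). The replicate block changed no other call. In 3 cases the sign changed: VEGFA for 24 h minus 3 h of CO2 was 0.08 in the NTS without the 5 libraries that stood apart and -0.07 in the RTN with voom, and VEGFC for VRC minus RTN at 7 d room air was 0.03 with voom. The cause was not tested.

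With each library left out in turn, VEGFA for 24 h minus 3 h ran over -0.09 to 0.09 in the NTS and -0.01 to 0.19 in the RTN. VEGFA for VRC minus RTN in 24 h room air ran over -0.05 to 0.09, and for 7 d CO2 in the VRC over -0.11 to 0.01. VEGFB in the NTS ran over -0.16 to 0.21 at 3 h and -0.35 to 0.07 for 24 h minus 3 h, both changing sign without number 2 of the 3 h group. VEGFB for 7 d CO2 in the RTN ran over -0.03 to 0.32, and for VRC minus RTN at 7 d room air over -0.23 to 0.10. VEGFC for 24 h CO2 in the NTS ran over -0.16 to 0.04, and for VRC minus RTN at 7 d room air over -0.13 to 0.09.

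The number of genes called moved with the settings, among them the replicate block, which between exposures ties libraries of different goats. At 3 h it was 2 in the VRC by edgeR, 121 by DESeq2, 95 with the replicate block and 180 without number 3 of the 3 h group. At 24 h it was 126 in the VRC, 274 by DESeq2 and 18 without number 1 of the CO2 group, and 0 in the NTS, 191 by DESeq2, 273 by voom and 148 without the libraries that stood apart. In the RTN it was 0 at 24 h and 9 by DESeq2, and 2 at 3 h and 17 by DESeq2. In the NTS at 7 d it was 1 and 75 by DESeq2. The block gave 2371 in place of 1289 for NTS minus RTN at 7 d room air.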
